A study of Sus scrofa with 18 samples.

Results

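A list of 10 genes of the brain's blood vessels was followed through fetal pig brain development, each looked up by its name in the deposited gene counts. Of the 10 genes, 9 were found under their names among 31908 genes: the ligand gene VEGFA, the general vessel genes FLT1, KDR, TEK, TIE1, PECAM1 and VWF, and the barrier genes CLDN5 and MFSD2A. The name ABCB1 was not in the file. All 9 passed the filter on low counts, together with 16325 genes in all. RNA came from whole brains of fetuses collected at gestation day (GD) 45, 60 or 90, with 3 female and 3 male fetuses at each day. The dams were Landrace x Large White gilts bred by artificial insemination to LR-M6 boars, and no group was treated. Within a sex, the 3 fetuses of a day carried 3 different litter sizes in the labels, and at each day every litter size occurred in 1 female and 1 male, which were read here as litter mates.

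Endothelial cells line the vessels that grow into the fetal brain from its surface. They follow VEGFA, which binds the receptors KDR and FLT1, and the growing vessels are stabilised through the angiopoietin receptor TEK and its partner TIE1. Brain endothelium then acquires a barrier, with CLDN5 sealing the junctions between cells, MFSD2A carrying lipids and keeping vesicle transport low, and the pump encoded by ABCB1 returning drugs and toxins to the blood.

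The 18 libraries held 15118843 to 19729783 counts (median 16413097), and the named members had between 72 counts (TEK) and 5727 counts (CLDN5) in a library. Values are in CPM, counts scaled to the total of their library, and levels of different genes were compared only per length, as FPKM, the CPM value per kilobase of exon. One library, male GD45 replicate 17, stood apart: its normalisation factor was 0.849 and its counts leaned most to short genes (a log2 slope of -0.23 per doubling of exon length) and to GC-rich genes (0.22 per 10% of GC content). In the other 17 libraries these slopes ran from -0.09 to 0.16 and from -0.11 to 0.15. Where that library decides a call or moves a value most, the value without it is given too. Astrocyte, endothelial and choroid plexus markers were all detected, as a whole brain holds these tissues.

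In the deposited annotation of Sscrofa11.1, VEGFA is ENSSSCG00000001695 (chr7:38746052-38761038, plus strand). FLT1 is ENSSSCG00000009320 (chr11:5620700-5795264, minus strand) and KDR is ENSSSCG00000008844 (chr8:41809116-41856339, minus strand). TEK is ENSSSCG00000005122 (chr1:195937394-196051957, minus strand) and TIE1 is ENSSSCG00000003950 (chr6:167919668-167940874, minus strand). PECAM1 is ENSSSCG00000017277 (chr12:14582481-14723336, plus strand) and VWF is ENSSSCG00000000712 (chr5:64519186-65002098, plus strand). CLDN5, with a single exon, is ENSSSCG00000041667 (chr14:51161032-51163482, minus strand), and MFSD2A is ENSSSCG00000003669 (chr6:95738973-95814953, plus strand). Counts of a gene are sums over its exons.

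The sequence just before the annotated start of CLDN5, the most abundant member, and of FLT1 and VEGFA, the members that rose most, is shown on Sscrofa11.1 in the direction of transcription, 250 bases each. Capitals mark CCGGAA, a form of the site bound by endothelial ETS factors, and the core site of hypoxia-inducible factors (ACGTG or GCGTG). Each was searched on both strands, and shorter or other forms of the ETS site were not searched.
CLDN5 (chr14:51163483-51163732, minus strand): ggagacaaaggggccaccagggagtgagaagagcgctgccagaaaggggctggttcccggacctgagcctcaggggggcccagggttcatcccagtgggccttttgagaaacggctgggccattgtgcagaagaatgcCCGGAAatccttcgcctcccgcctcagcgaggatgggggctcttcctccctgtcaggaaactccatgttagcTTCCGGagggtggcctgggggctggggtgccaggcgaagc
FLT1 (chr11:5795265-5795514, minus strand): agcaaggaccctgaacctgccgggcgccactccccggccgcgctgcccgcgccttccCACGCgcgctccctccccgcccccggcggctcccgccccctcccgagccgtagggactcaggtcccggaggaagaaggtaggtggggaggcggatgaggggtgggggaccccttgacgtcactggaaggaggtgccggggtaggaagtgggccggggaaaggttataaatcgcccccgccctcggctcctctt
VEGFA (chr7:38745802-38746051, plus strand): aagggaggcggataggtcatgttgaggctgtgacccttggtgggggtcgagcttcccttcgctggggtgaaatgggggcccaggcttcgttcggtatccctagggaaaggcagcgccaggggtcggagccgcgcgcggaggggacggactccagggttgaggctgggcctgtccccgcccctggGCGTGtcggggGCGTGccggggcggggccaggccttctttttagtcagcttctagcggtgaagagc
The CLDN5 window held 2 CCGGAA matches, which began 112 and 40 bases before the start, and no hypoxia core. The VEGFA window held 2 hypoxia cores at 66 and 55 bases, and the FLT1 window held 1 at 193 bases. Of the 9 members, 2 had a CCGGAA match in this window (CLDN5 and PECAM1) and 6 had a hypoxia core, beside 11.3% and 36.9% of 30431 annotated gene starts. A match is a description of these letters and was not tested as a binding site. The annotated start of PECAM1 lay beside the neighbouring gene DDX5, and RefSeq places the start of PECAM1 further downstream.

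Per length, CLDN5 was the most abundant member, with a median of 85.4 FPKM over 18 libraries and a range from 65.2 to 132.5 FPKM that lay above every other member in every library. MFSD2A (median 16.4 FPKM), TIE1 (14.4 FPKM) and VEGFA (13.7 FPKM) followed, and their ranges overlapped. KDR stood at 6.99 FPKM, PECAM1 at 4.47, VWF at 3.97 and FLT1 at 3.78 FPKM, again with overlapping ranges. TEK was lowest among the named members at 1.83 FPKM. FLT1 and VEGFA varied most between libraries, with a coefficient of variation in CPM of 43.5% and 32.9%, and TIE1, VWF and MFSD2A varied least (13.98%, 14.7% and 15.2%).

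Most calls among the vessel genes involved GD90. From GD45 to GD90, 5 of the 9 members were called higher in females (VEGFA, FLT1, TIE1, PECAM1 and MFSD2A), where 20% of all genes tested were called higher. In males 5 of 9 were called higher (VEGFA, FLT1, KDR, TEK and PECAM1), beside 23.4% of all genes. No member was called lower in any comparison of days. A gene was called when its adjusted p from the quasi-likelihood test of edgeR was under 0.05. From GD60 to GD90, 3 of 9 rose in females (FLT1, PECAM1 and MFSD2A; 13.7% of all genes) and 2 of 9 in males (FLT1 and PECAM1; 18.5% of all genes). From GD45 to GD60 no member was called in females, where 4.34% of all genes rose, although FLT1 and TIE1 had an unadjusted p under 0.05 and DESeq2 called FLT1. In males VEGFA alone was called over this period, beside 3.08% of all genes. The median log2 change of the 9 members from GD45 to GD90 was 0.43 in females and 0.56 in males, against -0.01 for all genes in each sex. In whole tissue, more endothelial cells and more of an RNA per cell cannot be told apart.

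**Figure D1:**
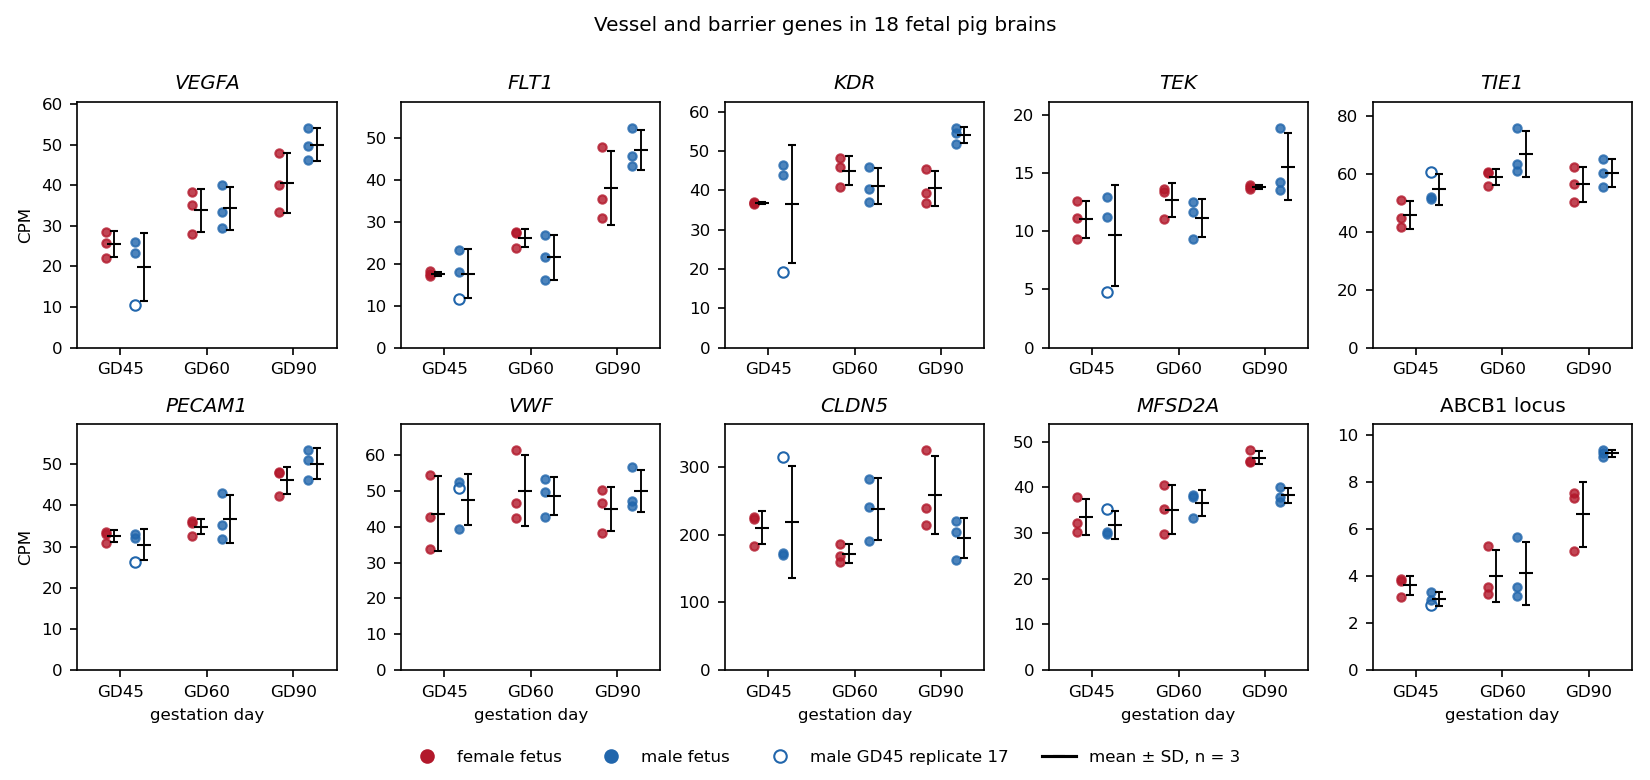
CPM (vertical axes, from 0) of the 9 members and of the unnamed gene at the ABCB1 locus in 18 libraries by gestation day (horizontal axes). Points are fetuses, females in red and males in blue, the open circle is male GD45 replicate 17, and bars are the mean ± SD of 3. FLT1, VEGFA and PECAM1 stood highest at GD90 in both sexes, while the days overlapped in VWF.

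VEGFA, the growth signal released by neural and glial cells short of oxygen, rose across gestation in both sexes. In females it stood at 25.9, 22.1 and 28.6 CPM at GD45, at 35.1, 38.5 and 27.9 CPM at GD60 and at 33.5, 48.1 and 40.2 CPM at GD90. In males it stood at 23.4, 26.1 and 10.4 CPM at GD45, at 40.1, 33.5 and 29.5 CPM at GD60 and at 46.2, 49.8 and 54.2 CPM at GD90. All GD90 brains lay above all GD45 brains of their sex, and in males the 3 days did not overlap. From GD45 to GD90 the log2 change was 0.77 ± 0.20 (SE) in females (1.71-fold, adjusted p = 0.00606) and 1.32 ± 0.21 in males (2.49-fold, adjusted p = 7.35e-05). In males the step from GD45 to GD60 was called (log2 change 0.79 ± 0.20, adjusted p = 0.0314), in 7 of 14 alternatives, and the step from GD60 to GD90 was not (0.53 ± 0.20, adjusted p = 0.0515), although it passed in 7 of 15. The rise from GD45 to GD90 was kept in all 14 alternatives in males and in all 15 in females. The lowest value, 10.4 CPM, came from male GD45 replicate 17, and without it the male changes from GD45 were 0.52 to GD60 (adjusted p = 0.0473) and 1.05 to GD90 (adjusted p = 5.5e-05).

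FLT1, the high-affinity VEGFA receptor that also holds the ligand back from KDR, rose most of the named members. Females had 17.1, 18.1 and 17.5 CPM at GD45, 27.5, 23.7 and 27.3 CPM at GD60 and 30.9, 47.9 and 35.3 CPM at GD90. Males had 17.9, 23.2 and 11.5 CPM at GD45, 26.9, 16.1 and 21.5 CPM at GD60 and 43.1, 52.3 and 45.6 CPM at GD90. The 3 days did not overlap in females, and in males GD90 lay above both earlier days, which overlapped. From GD45 to GD90 FLT1 rose 2.32-fold in females (log2 1.22 ± 0.20, adjusted p = 0.00014) and 2.64-fold in males (1.40 ± 0.20, adjusted p = 3.3e-05), and these calls held under every alternative tried (1.23 in males without male GD45 replicate 17). From GD60 to GD90 the rise was 1.53-fold in females (adjusted p = 0.0278) and 2.17-fold in males (adjusted p = 0.000522). The female step was lost without female GD60 replicate 3 (log2 0.63, adjusted p = 0.0649), female GD60 replicate 5 (0.53, adjusted p = 0.111) or female GD90 replicate 7 (0.42, adjusted p = 0.149), and with library size alone in place of TMM factors (0.54, adjusted p = 0.0847).

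KDR, the main signalling receptor for VEGFA, moved less. Females had 36.9, 37.0 and 36.4 CPM at GD45, 48.1, 40.8 and 46.0 CPM at GD60 and 36.7, 45.5 and 39.5 CPM at GD90. Males had 46.3, 43.9 and 19.2 CPM at GD45, 46.0, 37.0 and 40.4 CPM at GD60 and 55.9, 54.6 and 51.8 CPM at GD90. In males all GD90 brains were above all earlier ones, whereas in females GD90 overlapped both other days. KDR was called from GD45 to GD90 in males (log2 0.56 ± 0.18, adjusted p = 0.0188) and was not in females (0.24 ± 0.18, adjusted p = 0.314). Without male GD45 replicate 17, whose 19.2 CPM was the lowest of all, the male value was 0.30 (adjusted p = 0.0502), and without male GD90 replicate 1 or 8 it was 0.54 or 0.53 (adjusted p = 0.0508 and 0.054). The call was also lost in a fit of the 6 libraries compared (0.56, adjusted p = 0.124), and it held in 10 of 14 alternatives. The ratio of FLT1 to KDR in FPKM was 0.444 ± 0.064 (SD, n = 6) at GD45, 0.496 ± 0.054 at GD60 and 0.813 ± 0.087 at GD90. Every GD90 brain had a ratio of at least 0.698, above the highest value of the earlier days (0.543, in male GD45 replicate 17).

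TEK, the angiopoietin receptor, and TIE1, its partner without a strong ligand of its own, act together on vessel stability. TEK stood at 9.37, 12.6 and 11.2 CPM in GD45 females, at 13.4, 13.7 and 11.05 CPM at GD60 and at 13.95, 13.9 and 13.7 CPM at GD90. In males it stood at 11.2, 13.0 and 4.75 CPM, at 12.5, 9.37 and 11.7 CPM and at 18.9, 13.6 and 14.2 CPM on these days. GD90 brains of each sex lay above all GD45 brains of that sex. The change was called in males (log2 0.68 ± 0.23, adjusted p = 0.0208) and not in females (0.43 ± 0.23, adjusted p = 0.145), and the male call was lost without male GD45 replicate 17 (0.40, adjusted p = 0.0819), without male GD90 replicate 1 (0.52, adjusted p = 0.103) or in a fit of the 6 libraries compared (0.69, adjusted p = 0.126). TIE1 ranged from 41.6 to 51.1 CPM in GD45 females, from 55.7 to 60.7 CPM at GD60 and from 50.4 to 62.6 CPM at GD90. In males its ranges were 51.2 to 60.7, 61.1 to 75.9 and 55.6 to 65.2 CPM. In both sexes GD60 lay above GD45 without overlap, yet the GD60 step was not called (log2 0.38 ± 0.14, adjusted p = 0.127 in females, and 0.24 ± 0.14, adjusted p = 0.405 in males). Without male GD45 replicate 17 this step passed in both sexes (0.37, adjusted p = 0.03, and 0.43, adjusted p = 0.0362). From GD45 to GD90 TIE1 was called in females (0.41 ± 0.14, adjusted p = 0.0342), in 9 of 15 alternatives, and was 0.08 ± 0.14 in males, or 0.26 without male GD45 replicate 17 (adjusted p = 0.0962).

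PECAM1, the adhesion molecule at the borders of endothelial cells, rose late in both sexes. Females had 33.04, 33.6 and 30.8 CPM at GD45, 32.7, 35.6 and 36.1 CPM at GD60 and 48.0, 47.9 and 42.2 CPM at GD90. Males had 32.1, 33.2 and 26.2 CPM, then 43.0, 31.8 and 35.3 CPM, and 53.3, 51.1 and 46.1 CPM at GD90. GD90 brains lay above every earlier brain of their sex, and the earlier days overlapped. From GD60 to GD90 the log2 change was 0.49 ± 0.12 in females (adjusted p = 0.00607) and 0.44 ± 0.12 in males (adjusted p = 0.0104), and from GD45 it was 0.61 ± 0.12 (adjusted p = 0.000701) and 0.68 ± 0.12 (adjusted p = 0.000232). The call from GD45 to GD90 held under every alternative in both sexes, whereas the male step from GD60 was lost when the trend on gene length was removed (0.26, adjusted p = 0.146) or without male GD60 replicate 6 (0.34, adjusted p = 0.0649). Macrophages and platelets also make PECAM1. The summed level of 12 microglia and macrophage markers was 127.1 to 174.4 CPM at GD45 and 219.1 to 330.6 CPM at GD90, and its part in the rise was not tested. The summed level of the 8 platelet markers found, mostly ITGA2B, was 53.1 to 104.8 CPM at GD45 (78.9 or more without male GD45 replicate 17) and 53.5 to 82.2 CPM at GD90, with PPBP and GP1BA at or below 0.669 CPM on average in the GD45 and GD90 groups and GP1BB at 0. Of the 4 platelet markers tested 1 rose and 1 fell in females and 1 fell in males.

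VWF, the clotting factor stored in endothelium, had no call in any comparison of days. It ranged from 33.7 to 54.5 CPM at GD45, from 42.4 to 61.3 CPM at GD60 and from 38.2 to 56.6 CPM at GD90, and the days overlapped. The log2 change from GD45 to GD90 was 0.14 ± 0.20 in females and 0.01 ± 0.20 in males. Its sign changed in some alternatives, so no direction was given.

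**Figure D2:**
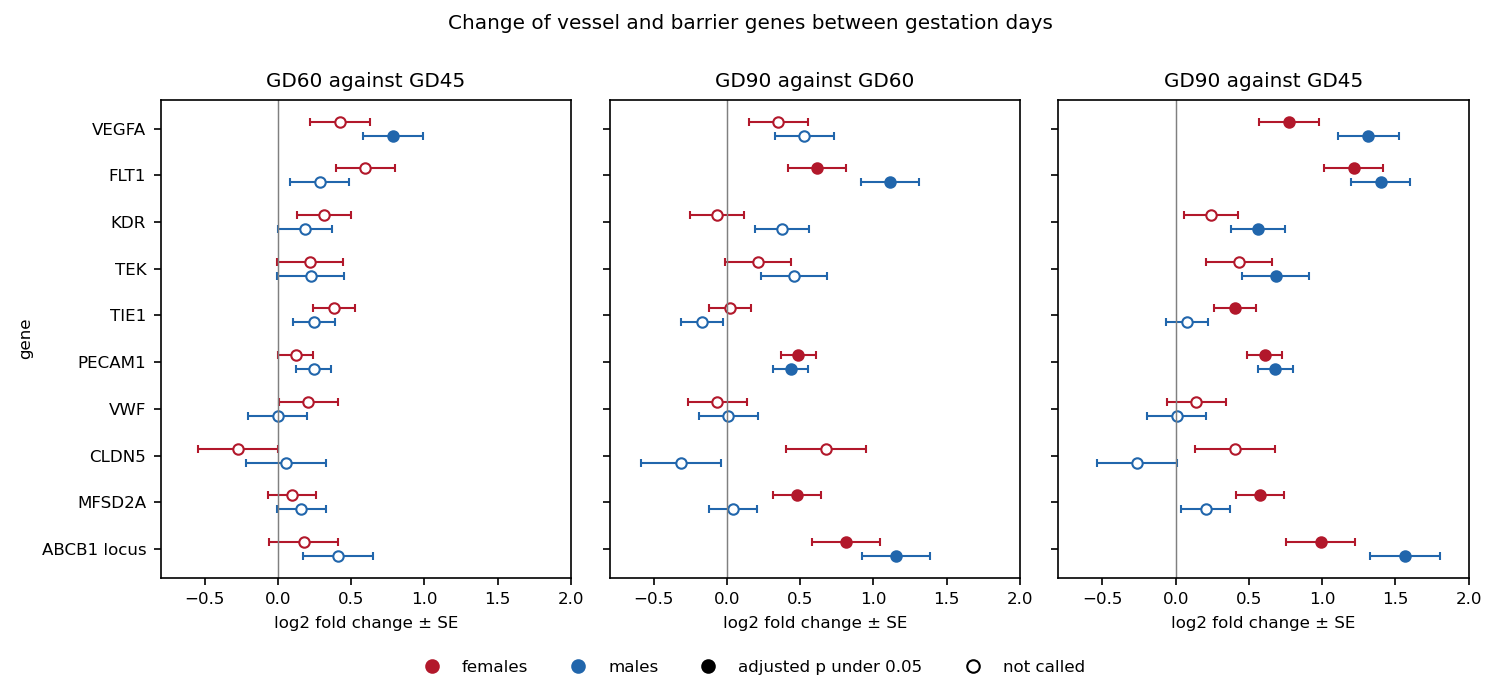
Log2 fold change ± SE (horizontal axes) of the 9 members and of the gene at the ABCB1 locus between gestation days, females in red and males in blue. Filled points have an adjusted p under 0.05 from edgeR. All filled points lie to the right of 0.

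Among the barrier genes, CLDN5 had no call between days and MFSD2A rose late in females. CLDN5 stood at 223.2, 226.0 and 183.1 CPM in GD45 females, at 159.7, 169.2 and 187.2 CPM at GD60 and at 324.8, 214.9 and 239.3 CPM at GD90. In males it stood at 172.8, 169.6 and 315.0 CPM, at 191.5, 240.7 and 282.6 CPM and at 220.7, 203.5 and 162.4 CPM on these days. In females GD60 was below GD90 without overlap, and in males all days overlapped. The comparison nearest to a call was GD90 against GD60 in females (log2 0.68 ± 0.27, adjusted p = 0.0776), which passed without male GD45 replicate 17 (0.69, adjusted p = 0.00697) and in a fit of the 6 libraries compared (0.67, adjusted p = 0.025). The male change from GD45 to GD90 was -0.26 ± 0.27 with that library and 0.23 without it, and neither was called.

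CLDN5 moved with the base composition of the libraries. Its exons have 65.6% GC, the highest of the members, and over 18 libraries its log2 CPM had a Pearson r of 0.81 with the slope of a library's counts on GC content and of -0.77 with the slope on gene length. The libraries with the highest GC slopes, male GD45 replicate 17 (0.22) and male GD60 replicates 6 and 16 (0.15 and 0.14), held 315.0, 240.7 and 282.6 CPM of CLDN5. KDR, with a longer transcript and 48.4% GC, went the other way (r = -0.55 with the GC slope and 0.84 with the length slope). Without male GD45 replicate 17, r with the GC slope was 0.73 for CLDN5 and -0.20 for KDR, so the latter rests on that library, and r with the length slope was -0.66 and 0.72. Without the 2 libraries farthest from the median slope, r was 0.75 for CLDN5 with the GC slope and 0.68 for KDR with the length slope. VEGFA, TEK and FLT1 also went with the length slope (r = 0.75, 0.73 and 0.67). Without male GD45 replicate 17 these were 0.58, 0.51 and 0.60. For PECAM1 r with the length slope was 0.39, and for TIE1, VWF and MFSD2A it was -0.15, -0.15 and -0.27. With the GC slope, r was 0.62 for TIE1, 0.51 for VWF and 0.52 for MFSD2A, and -0.005 for PECAM1. Without male GD45 replicate 17, r with the GC slope was 0.54 for TIE1, 0.39 for VWF and 0.53 for MFSD2A. Without the 2 libraries farthest from the median slope it was 0.37, 0.39 and 0.58. The calls of VEGFA and FLT1 from GD45 to GD90 held with the length trend removed. The points of these correlations share their library and day, and what part of the spread these slopes account for was not tested. With the GC trend removed, the female change of CLDN5 from GD60 to GD90 was 0.55 (adjusted p = 0.0548).

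**Figure D3:**
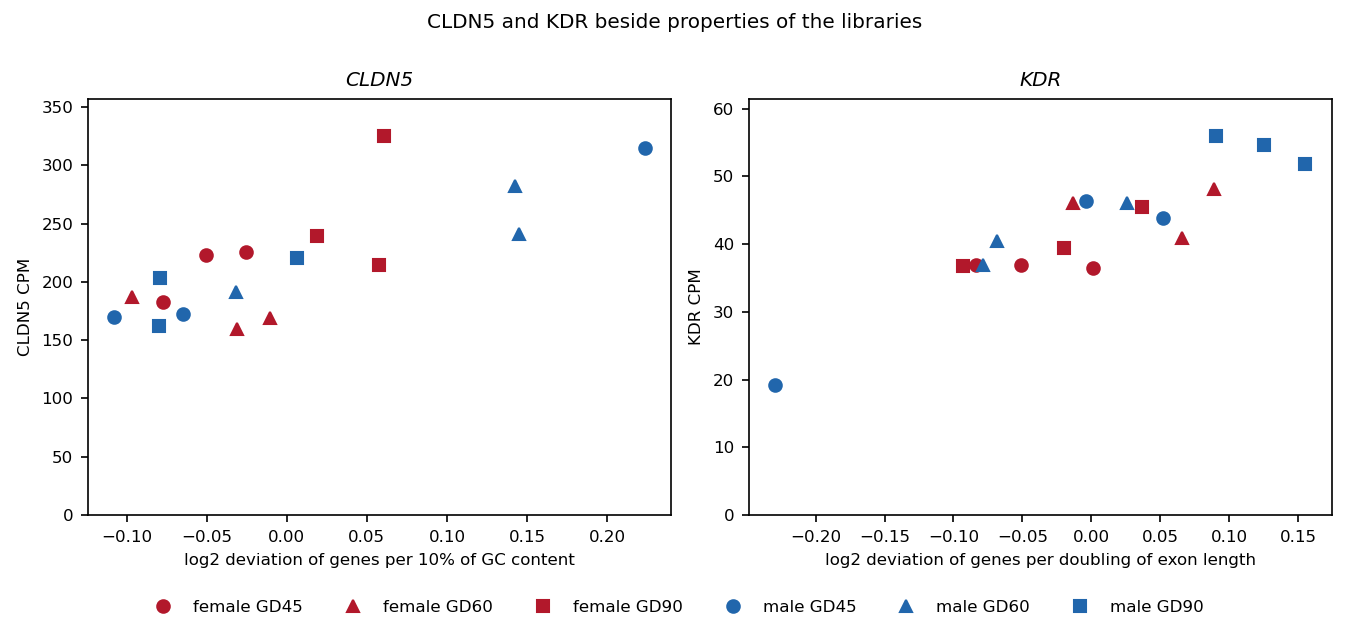
CPM of CLDN5 against the slope of each library's gene counts on GC content (left) and CPM of KDR against the slope on log2 exon length (right), with 18 points, colour for sex and shape for day. CLDN5 rose with the GC slope (r = 0.81) and KDR with the length slope (r = 0.84), and male GD45 replicate 17 lies at an end of both axes.

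MFSD2A, the lipid carrier of brain endothelium, stood at 32.3, 37.9 and 30.3 CPM in GD45 females, at 35.3, 29.7 and 40.5 CPM at GD60 and at 45.8, 48.1 and 45.5 CPM at GD90. Male values were 30.3, 29.8 and 35.3 CPM, then 33.2, 37.9 and 38.4 CPM, and 40.1, 37.8 and 36.8 CPM at GD90. Female GD90 brains lay above every other brain, and in males GD90 lay above GD45 while overlapping GD60. The log2 change from GD45 to GD90 was 0.57 ± 0.17 in females (1.49-fold, adjusted p = 0.0111) and 0.20 ± 0.17 in males (adjusted p = 0.326). The female call was lost without female GD45 replicate 18 (0.48, adjusted p = 0.0611), and the male change passed without male GD45 replicate 17 (0.39, adjusted p = 0.0473). The female step from GD60 (0.48 ± 0.17, adjusted p = 0.0406) held in 8 of 15 alternatives, and leaving out any of 5 female libraries ended it (0.35 to 0.50, adjusted p from 0.0753 to 0.183). The annotated MFSD2A gene overlaps CAP1, and how reads shared by genes were counted was not stated.

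ABCB1, the gene of the drug efflux pump P-glycoprotein, had no value under its name. A gene without a name, ENSSSCG00000015390 (chr9:93050121-93146467, plus strand), covered 96.3% of the exon bases that RefSeq gives to ABCB1 on the same build. It was looked up after the file was seen and is not counted among the members. Of its own exon bases 68.4% lay in those of ABCB1, and a second unnamed gene covered 47.0% of ABCB1, so reads of the locus may be split. It was the lowest of the values shown (median 0.595 FPKM, 42 to 153 counts in a library). Females had 3.80, 3.13 and 3.88 CPM at GD45, 5.29, 3.24 and 3.55 CPM at GD60 and 7.54, 7.34 and 5.05 CPM at GD90. Males had 2.97, 3.33 and 2.77 CPM, then 5.66, 3.56 and 3.14 CPM, and 9.07, 9.35 and 9.26 CPM at GD90. GD90 lay above GD45 in both sexes, and the rise of 1.99-fold in females (log2 0.99 ± 0.23, adjusted p = 0.00292) and 2.96-fold in males (1.57 ± 0.24, adjusted p = 5.47e-05) held under every alternative tried.

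To set barrier against general vessel genes within a library, the mean log2 CPM of the 6 general vessel members was subtracted from that of CLDN5 and MFSD2A, with no test. In females the difference was 1.66, 1.65 and 1.47 at GD45, 1.13, 1.03 and 1.42 at GD60 and 1.83, 1.39 and 1.50 at GD90. In males it was 1.24, 1.20 and 2.32 at GD45, 1.19, 1.69 and 1.68 at GD60 and 1.11, 1.08 and 0.87 at GD90. Female GD60 brains lay below the other female brains except for an overlap at 1.39 to 1.42, and male GD90 brains lay below all other males. Male GD90 libraries also had the highest length slopes (0.09 to 0.16), and female GD60 libraries had slopes of -0.01 to 0.09. The males at 2.32, 1.69 and 1.68 had the highest GC slopes (0.22, 0.15 and 0.14). Female GD45 brains, at 1.47 to 1.66, had GC slopes of -0.08 to -0.03. The highest value, 2.32, was that of male GD45 replicate 17. Over all libraries, r with the length slope was -0.77 for CLDN5 and 0.84, 0.73 and 0.67 for KDR, TEK and FLT1. For MFSD2A, TIE1 and VWF it was -0.27, -0.15 and -0.15, and for PECAM1 0.39. What part of the difference these slopes account for was not tested. The ABCB1 locus, which rose from GD45 to GD90 in both sexes, was not part of this difference. The general vessel mean alone went from 4.64 to 4.90 log2 CPM at GD45 through 4.90 to 5.11 at GD60 to 5.18 to 5.44 at GD90, with GD90 above both earlier days in every brain.

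Between males and females no member was called at any day in the fit of all libraries. At an unadjusted p under 0.05 there was 1 member at GD45 (TIE1) and none at GD60 or GD90. The share of all genes called was 0.0919% at GD45 and 0.098% at both GD60 and GD90. At GD90, males against females had log2 differences of 0.36 ± 0.18 for KDR, -0.47 ± 0.27 for CLDN5 and -0.34 ± 0.17 for MFSD2A. In a fit of the 6 GD90 libraries alone, 0 of 9 members passed (6.88% of 15427 genes did), and with the litter as replicate block 3 of 9 passed, beside 21.4% of all genes. These were KDR (0.37 ± 0.10, adjusted p = 0.0308), CLDN5 (-0.45 ± 0.11, adjusted p = 0.0231) and MFSD2A (-0.33 ± 0.09, adjusted p = 0.0337). GD90 males had length slopes of 0.09 to 0.16 and GD90 females of -0.09 to 0.04, and the slopes of the sexes did not overlap. With the length trend removed from the same blocked fit no member passed: KDR stood at 0.23 (adjusted p = 0.125), CLDN5 at -0.35 (adjusted p = 0.0518) and MFSD2A at -0.21 (adjusted p = 0.159). With the GC trend removed MFSD2A alone passed (-0.32, adjusted p = 0.0422), with KDR at 0.29 (adjusted p = 0.069) and CLDN5 at -0.35 (adjusted p = 0.0772). The fit of 6 libraries without the block and those with a trend removed were chosen after seeing the data.

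Whether the change with age differed between the sexes was tested as an interaction. No gene was called for GD60 against GD45, GD90 against GD60 or GD90 against GD45 (0% of 16325 genes each, with 333, 3232 and 1395 genes at an unadjusted p under 0.05). Among the members, CLDN5 alone had an unadjusted p under 0.05, for GD90 against GD60 (male minus female log2 change -0.99 ± 0.39, adjusted p = 0.215). For MFSD2A from GD45 to GD90 the difference was -0.37 ± 0.23 (adjusted p = 0.542). The calls of MFSD2A and TIE1 in females and of KDR and TEK in males were therefore not shown to differ between the sexes.

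FLT1 makes a soluble, signal-blocking form when its transcript runs on into the intron after exon 13. The end of that exon (capitals) and the start of the intron after it are shown, on the minus strand of Sscrofa11.1.
FLT1 exon 13 end (chr11:5695387-5695506): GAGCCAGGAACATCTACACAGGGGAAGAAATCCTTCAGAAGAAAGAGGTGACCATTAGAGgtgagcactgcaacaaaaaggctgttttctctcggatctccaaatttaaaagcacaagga
The exon table counted 38.6% of the FLT1 gene counts and from 26.1% (KDR) to 64.5% (TIE1) of those of the other receptors. The share of FLT1 exon counts on exons 1 to 13 was 52.9% ± 9.6 (SD, n = 6) at GD45, 64.8% ± 7.6 at GD60 and 64.1% ± 7.9 at GD90. The same share in KDR was 30.7% ± 8.2, 40.8% ± 4.2 and 42.5% ± 10.4. TEK had 38.1%, 41.7% and 48.2%, and TIE1 33.4%, 41.1% and 40.5%. The means are given by sex as well, and a difference between the sexes was not tested. Female means were 56.7%, 70.0% and 58.0% for FLT1, 31.6%, 43.6% and 34.6% for KDR and 32.1%, 41.8% and 34.6% for TIE1 at GD45, GD60 and GD90, so they were highest at GD60. Male means were 49.1%, 59.5% and 70.2% for FLT1, 29.9%, 37.9% and 50.3% for KDR and 34.7%, 40.3% and 46.4% for TIE1, highest at GD90. TEK had means of 35.1%, 45.7% and 37.4% in females and of 41.1%, 37.8% and 59% in males, so its male mean was lowest at GD60. Of the single libraries, male GD45 replicate 17 was lowest for FLT1 (36.8%), KDR (15.6%) and TIE1 (19.7%), and female GD45 replicate 12 for TEK (21.5%). Without it the GD45 share of FLT1 was 56.1% ± 6.2.

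Exon usage, the count of an exon relative to the other exons of its gene, was tested for 87 exons of 8 members (CLDN5 has a single exon). No member exon was called in females for GD60 against GD45 (0.0495% of 76800 exons), GD90 against GD60 (0.0859%) or GD90 against GD45 (0.154%). In males none was called for GD60 against GD45 (0%) or GD90 against GD60 (0.353%). At an unadjusted p under 0.05 these comparisons held 8, 5, 4, 6 and 2 member exons. For GD90 against GD45 in males, beside 1.5% of all exons, exon 27 of VWF (chr5:64607380-64608743) was relatively higher at GD90 (log2 1.28, adjusted p = 0.0483), and it was not called without male GD45 replicate 17. No FLT1 or VEGFA exon was called in any comparison.

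Of 25 genes expressed by endothelium of most organs, 6 were called higher and 1 lower from GD45 to GD90 in females, and 7 higher and 1 lower in males. Over all genes, 20% were called higher and 18.9% lower in females, and 23.4% higher and 24.3% lower in males. Over this interval the share of higher calls in the list was near that of all genes, and lower calls were fewer. S1PR1, the sphingosine phosphate receptor that steadies junctions, went from 23.6 to 62.8 CPM in females (log2 1.51, adjusted p = 0.00116) and from 18.8 to 68.1 CPM in males (1.87, adjusted p = 0.00018). Which cells of the whole brain carried this rise was not tested. NOS3, which makes nitric oxide, rose by 0.52 and 0.56, and TAL1, a factor of blood and early endothelium, fell by 1.32 and 1.15 on the log2 scale. CDH5, the cadherin that defines endothelium, had group means of 31.6 to 41.1 CPM and was not called (-0.27 in females and 0.29 in males); it is given for its role, after its values were seen. From GD60 to GD90, 12 of the 25 were called higher in females and 7 in males, with 0 lower. Over all genes 13.7% and 18.5% were called higher. The summed level of the 25 was 478.2 to 570.2 CPM at GD45, 495.4 to 557.9 CPM at GD60 and 635.4 to 728.9 CPM at GD90. From GD45 to GD90 the median log2 change of the list was 0.38 in females and 0.29 in males, against -0.01 for all genes in each sex. This median and the shares of calls over all genes from GD45 to GD90 are the background of every list that follows.

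Of 10 tight junction genes tested, none passed in females and in males 2 were higher and 1 lower from GD45 to GD90, where the male share of higher calls was near the 23.4% of all genes. OCLN, the occludin gene, went from 9.90 to 13.1 CPM in females (log2 0.51, adjusted p = 0.0777) and from 9.05 to 14.1 CPM in males (0.62, adjusted p = 0.0273). In males CGNL1 also rose (0.46) and CLDN1 fell by 0.94 on the log2 scale. These 3 genes were named after their values were seen, since no tight junction gene was called in both sexes. Of 16 transporter genes of brain endothelium, 9 rose in females with none lower, and 9 rose in males with 2 lower (SLC22A8 and SLC38A5). The shares of all genes called higher and lower were 20% and 18.9% in females and 23.4% and 24.3% in males. SLCO1C1, the thyroid hormone carrier, rose from 7.75 to 30.5 CPM in females (log2 2.07, adjusted p = 2.67e-05) and from 8.40 to 34.2 CPM in males (2.02, adjusted p = 3.13e-05). Here too the cells that carried the rise were not told apart. SLC19A3, the thiamine carrier, rose by 1.46 and 1.61 and SLC38A3, a glutamine carrier that astrocytes also use, by 1.32 and 0.93. The medians were 0.03 and 0.04 for the tight junction genes and 0.57 and 0.48 for the transporters. SLC2A1 and ABCC4 were not found by name.

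Of 19 genes of the WNT signalling that induces the barrier, 2 rose and 6 fell in females and 4 rose and 5 fell in males from GD45 to GD90. Both male shares were near those of all genes (23.4% higher and 24.3% lower). In females 20% of all genes were called higher and 18.9% lower. The neural ligands WNT7A and WNT7B fell by 1.21 and 0.97 on the log2 scale in females and by 1.46 and 1.45 in males, and LEF1, a nuclear factor of the pathway, fell by 0.71 and 0.58. TSPAN12, a co-activator of the endothelial receptor FZD4, rose by 0.77 and 1.02, and TNFRSF19 by 0.57 and 0.80. Genes of vesicle transport and leak held 3 higher of 6 in females, and 5 higher and 1 lower in males. CAV2, CAVIN2 and CAVIN1, which build caveolae, rose by 1.16, 0.75 and 0.80 in females and by 1.43, 0.96 and 0.63 in males. PLVAP, the diaphragm protein of leaky vessels, went from 39.6 to 29.6 CPM in females (log2 -0.31, adjusted p = 0.181) and fell from 37.6 to 26.5 CPM in males (-0.56, adjusted p = 0.0168). The medians were -0.19 and 0.08 for the WNT genes and 0.75 and 1.20 for the genes of vesicle transport and leak, among which PLVAP went the other way.

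Among 9 other genes of the VEGF family and its tip-cell response, 1 rose and 1 fell in each sex. Beside this and the next lists, 20% of all genes were called higher and 18.9% lower in females. In males these shares were 23.4% and 24.3%. ESM1, a tip-cell gene induced by VEGFA, rose from 1.19 to 7.48 CPM in females (log2 2.76, adjusted p = 6.49e-06) and from 0.675 to 7.35 CPM in males (3.40, adjusted p = 1.4e-06). The other ligand PGF went from 7.57 to 5.41 CPM in females (-0.38, adjusted p = 0.199) and fell from 7.26 to 4.67 CPM in males (-0.69, adjusted p = 0.0202). Of 6 genes around TEK and TIE1, 2 rose and 1 fell in females and 4 rose in males. ANGPT2, the ligand that loosens vessels by competing with ANGPT1, rose by 1.14 and 1.26, and PTPRB, the phosphatase that damps TEK, rose by 1.38 and 1.58. ANGPT1 went from 5.27 to 5.66 CPM in females (0.21, adjusted p = 0.538) and from 3.89 to 6.58 CPM in males (0.74, adjusted p = 0.0212). Of 14 genes that respond to hypoxia as VEGFA does, 6 rose and 2 fell in females and 5 rose and 2 fell in males, with LDHA, P4HA1 and EGLN3 rising by 1.92, 0.93 and 0.91 in females and by 1.61, 1.21 and 1.22 in males. The medians in females and males were 0.14 and 0.05 for the VEGF family, 0.16 and 0.81 for the genes around TEK and 0.28 and 0.05 for the hypoxia genes.

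**Figure D4:**
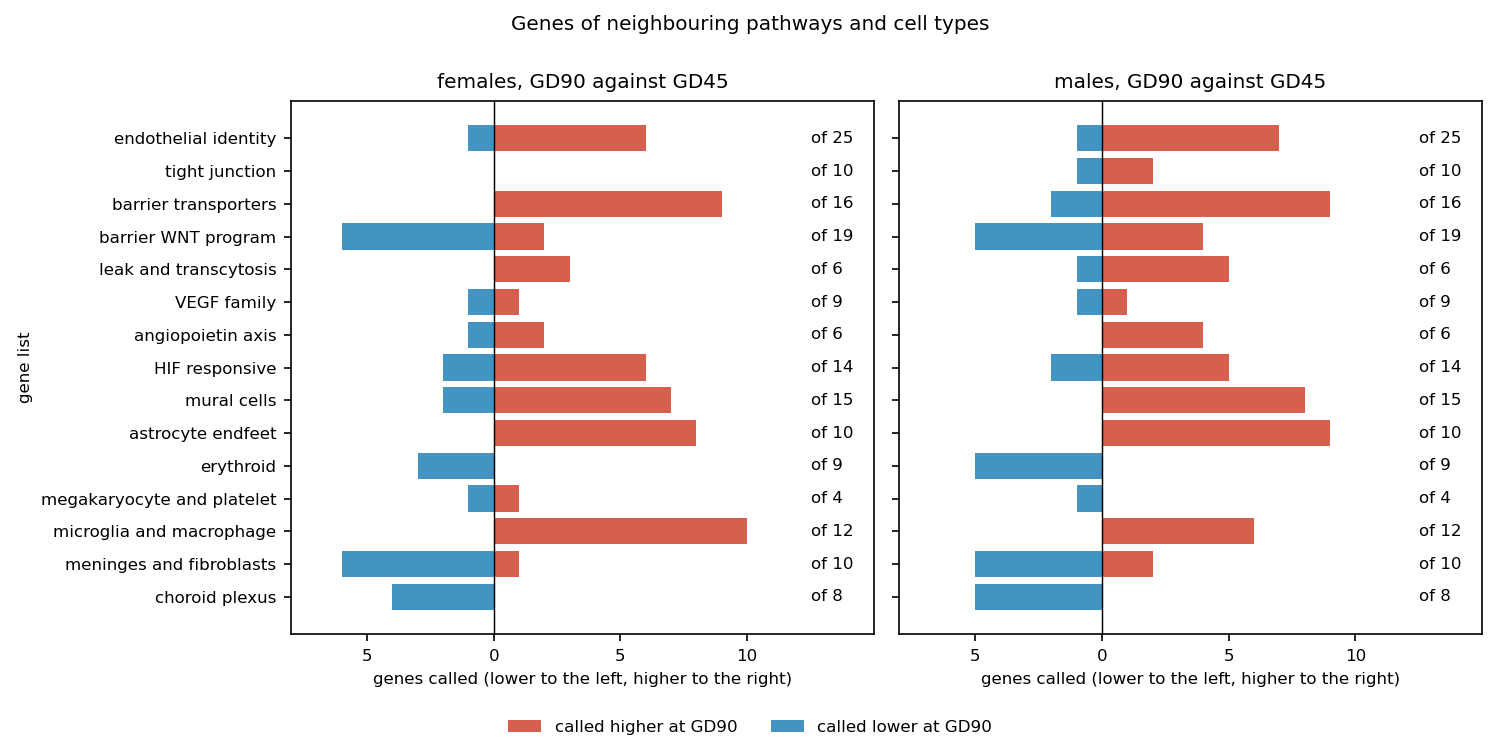
Number of genes called higher (red, right) or lower (blue, left) from GD45 to GD90 in each of 15 gene lists, females left and males right, with the number tested at the margin. In both sexes the endothelial, transporter, leak, angiopoietin, hypoxia (HIF), mural, astrocyte and microglia lists held more higher than lower calls. The erythroid and choroid plexus lists held lower calls only.

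Marker genes of the cells that lie against the vessels were measured over the same interval. Of all genes, 20% were called higher and 18.9% lower in females, and 23.4% higher and 24.3% lower in males. Of 15 mural cell genes 7 rose and 2 fell in females and 8 rose in males, led by the contractile genes MYH11 (log2 2.53 and 2.45) and CNN1 (2.41 and 1.88) and by the pericyte gene RGS5 (1.09 and 1.32). Their summed level was 234.3 to 351.0 CPM at GD45 (327.0 or more without male GD45 replicate 17) and 451.4 to 493.9 CPM at GD90. Of 10 astrocyte genes at the vessel wall 8 rose in females and 9 in males, among them GFAP (4.46 and 4.51) and the water channel AQP4 (3.86 and 4.29), and their summed level was 331.3 to 599.5 CPM at GD45 (484.5 or more without that library) and 2001 to 2659 CPM at GD90. Astrocytes also make VEGFA, and the part of this list in its rise was not tested. Of 12 microglia genes 10 rose in females and 6 in males, with CX3CR1 at 1.91 and 1.94. Of 9 erythroid genes 3 fell in females and 5 in males, and their summed level was 278.3 to 683.4 CPM at GD45, highest in male GD45 replicate 17 (387.8 or less without it), and 104.1 to 184.4 CPM at GD90. Choroid plexus markers fell in 4 and 5 of 8, with OTX2 down by 2.25 and 1.83, and meningeal and fibroblast markers fell in 6 and 5 of 10 while PDGFRA, also a marker of oligodendrocyte precursors, rose by 1.75 and 2.15. The medians in females and males were 0.54 and 0.43 for mural, 2.36 and 2.31 for astrocyte, 1.03 and 0.89 for microglia, -0.88 and -1.43 for erythroid, -0.66 and -0.98 for choroid plexus and -0.77 and -0.61 for meningeal genes.

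The genes whose log2 CPM was most like that of PECAM1 over the 18 libraries were CNN1 (Pearson r = 0.95), SQOR, SGK2, UST and WSB2 (0.94 each). Those most like MFSD2A were GRINA, RUNDC3A, C1QTNF4, ATP6AP1 and PTTG1IP (0.93 to 0.94). Within the members, PECAM1 followed FLT1 (0.90), KDR followed TEK (0.83) and VEGFA followed FLT1 (0.86), whereas CLDN5 followed MFSD2A (0.70) and went against KDR (-0.50). These libraries share the 3 gestation days and their slopes on GC content and length, so the correlations are a description.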

How the data were processed

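Raw read counts per gene and per exon were analysed as the authors deposited them. Per the labels and the methods, reads were trimmed with Trimmomatic, aligned with HISAT2 to Sscrofa11.1 and counted with featureCounts on the Ensembl annotation. How strand, multiply matching reads and reads on overlapping genes were handled was not given in the sources used here. The transcript counts were not used. Runs of the 4 libraries with 2 runs were summed, and no column of samples was left unused. Members were matched by gene name, with gene names for 782 further genes taken from a table.

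Counts were analysed in R 4.3.3 with edgeR 4.0.16: filterByExpr, TMM, 1 model of 6 groups of sex and gestation day, the quasi-likelihood test and p-values adjusted by Benjamini-Hochberg over 16325 genes, called under 0.05. Exon usage was tested with diffSpliceDGE over 76800 exons. A prior count of 2 entered log2 CPM. Library slopes are those of each gene's deviation from its mean on log2 exon length or GC content. The steps were tested on simulated data. Alternatives were DESeq2 1.42.0, limma 3.58.1 with litter as block, no TMM, other filters, GC or length trends removed, fewer libraries and libraries left out in turn. The limma fit averaged the change over both sexes, and its value was counted among the alternatives of each sex.

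Members and gene lists were chosen with earlier results of these data known. From each list, up to 3 genes that rose and 3 that fell most from GD45 to GD90 in both sexes, with a mean of at least 1 CPM, were named, and genes whose role bears on a member were given by level. Replicates are different fetuses, and p-values measure only the spread between them.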

Additional observations from a re-analysis of the deposited data

Results flagged for a closer look

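Within the 6 brains of a gestation day, a value was singled out when its gap to the nearest brain was large against the range of the day (Dixon's test at the 95% level). Of the 30 combinations of day and gene examined, over the 9 members and the gene at the ABCB1 locus, 4 passed. Chance alone passes about 1 in 20 independent combinations. These combinations share their brains and hold correlated genes, so their count cannot be set against that rate. In 3 of the 4 the brain was male GD45 replicate 17. It had 19.2 CPM of KDR with the next brain at 36.4 CPM, 10.4 CPM of VEGFA with the next at 22.1 CPM, and 26.2 CPM of PECAM1 with the next at 30.8 CPM. The remaining value was TEK at GD90, where male GD90 replicate 1 had 18.9 CPM and the next brain 14.2 CPM.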

How the results depend on the processing

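Among the members' changes between days, recomputed under each alternative, 727 stayed on their side of the threshold, 34 called changes no longer passed, 31 newly passed and no called change turned its sign. These totals count the limma value, an average over both sexes, once for each sex. For GD60 against GD45 in females, where 0 of 9 members were called, DESeq2 and the 6 libraries compared alone gave 1 each, removal of the GC trend (added after seeing the data) gave 1, and both sexes in limma voom with litter as replicate block gave 2. For the same days in males, where 1 was called, no TMM, either trend removed and the 6 libraries alone gave 0, and the replicate block gave 2. The 6 libraries alone gave 4 in place of 2 for GD90 against GD60 in males and 3 in place of 5 for GD90 against GD45. Leaving out 1 library gave 0 to 2, 1 to 4 and 4 to 6 members in females and 0 to 2, 1 to 5 and 3 to 5 in males for GD60 against GD45, GD90 against GD60 and GD90 against GD45, and 0 to 0 between the sexes. Counts fell to 1 for GD90 against GD60 without female GD60 replicates 3 or 5, female GD90 replicate 7 or male GD60 replicate 6, to 0 for GD60 against GD45 without male GD60 replicates 4, 6 or 16, and to 3 for GD90 against GD45 without male GD90 replicate 1. Without male GD45 replicate 17 they were 2 in each sex for GD60 against GD45 and 5 in males for GD90 against GD60. The cause of these shifts was not tested. Male GD45 replicate 17 is in no female group and enters female comparisons only through the model shared by all groups. For GD60 against GD45 in females, FLT1 stood at log2 0.60 with it and 0.59 without it, and TIE1 at 0.38 and 0.37. Members with a changed exon were 1 and 0 without that library for GD90 against GD60 and GD90 against GD45 in males. Deviations of litter mates correlated between -0.09 and 0.42 over 9 pairs, and not all pairs passed 0.1. The litter as replicate block changed the sex comparison at GD90 from 0 to 3 members, and to 1 with the GC trend also removed. Depth limits TEK and the ABCB1 locus most, with as few as 72 and 42 counts in a library.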
